A study of Homo sapiens with 480 samples.

Results

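The eukaryotic translation initiation factors are the proteins that bring the initiator tRNA, the small ribosomal subunit and the mRNA together before protein synthesis starts. Their genes were taken from the table as every protein-coding row whose symbol begins with EIF1 to EIF6. EIF1AY and the 4 EIF2 kinases EIF2AK1 to EIF2AK4 were left out. Of 56 matching symbols, 51 genes remained, among 20302 features in all. By complex they were 4 EIF1 genes, 6 EIF2 genes, 5 EIF2B genes, 14 EIF3 genes and 5 genes of the EIF4A helicases with EIF4B and EIF4H. The others were 5 EIF4E genes, 3 EIF4E-binding protein genes, 3 EIF4G genes, 5 EIF5 genes and EIF6. These groups, called complexes below, follow the gene symbols, and not every gene in them encodes a subunit. EIF2A, EIF2D and EIF1AD do not, and EIF4ENIF1, counted with the EIF4E genes, encodes a protein that binds EIF4E.

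The levels are from single cells of Jurkat, a line grown from a human T cell leukaemia, and of J-Lat A2, a Jurkat-derived line that carries an integrated HIV-based construct and serves as a model of viral latency. J-Lat A2 is 1 clone, and Jurkat cells carry no such construct. Both lines were kept for 24 h in 0.1% (by volume) DMSO, the solvent control, in 1 uM SAHA, a histone deacetylase inhibitor (suberoylanilide hydroxamic acid), or in PMA at 1 ug/mL, a phorbol ester and T cell activator that acts through protein kinase C. Cells were sorted by FACS, after DAPI was added, into 480 wells on 5 plates of 96 wells, of which 410 wells were kept.

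Initiation begins when EIF2, loaded with GTP and the initiator tRNA, joins EIF1, EIF1A, EIF3 and EIF5 on the small subunit, and EIF2B recharges EIF2 with GTP afterwards. The mRNA is brought in through its cap by EIF4F, which is made of the cap-binding protein EIF4E, the scaffold EIF4G and the RNA helicase EIF4A. The EIF4E-binding proteins block EIF4E unless the kinase MTOR phosphorylates them. In T cells the rate of initiation rises with activation and growth, and phosphorylation of EIF2 lowers it under stress.

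A level is given as counts per 1000000 counts (CPM) of the summed counts of all kept cells of 1 group on 1 plate, scaled by the TMM method. Values stand in the order of plates P2449 and P2458 (first batch) and P2769, P2770 and P2771 (second batch). J-Lat A2 cells with DMSO (94 cells), J-Lat A2 cells with SAHA (67 cells in the first batch and 68 in the second) and Jurkat cells with DMSO (30 cells) were on all 5 plates. J-Lat A2 cells with PMA (79 cells), Jurkat cells with SAHA (36 cells) and Jurkat cells with PMA (36 cells) were on the 3 plates of the second batch. The summed totals ran from 1398739 counts (Jurkat cells with DMSO, plate P2458, 6 cells) to 19679858 counts. Of 9 T cell markers, CD3D, CD3E, CD3G, CD247, LCK, ZAP70, CD2, CD7 and PTPRC, every gene was detected in each group, though not on every plate. CD7 was at most 6.25 CPM on any plate, and CD2 was 0 to 9.53 CPM in J-Lat A2 cells with DMSO.

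Changes were tested with edgeR's quasi-likelihood test on 9 sums of group and batch, with batch as a term, over 13560 genes. They are log2 fold changes ± SE, with p-values adjusted by Benjamini-Hochberg over all these genes, and a gene was called when its adjusted p was under 0.05. Of the 51 initiation factor genes, 50 were tested. EIF2S3B, a retrogene copy of EIF2S3, had 2 counts in all and was not. Whether batches or plates were separate cultures is not stated in the labels, so the p-values measure the spread between these sums, which may be technical. The 3 groups with 1 batch each add nothing to that spread and were assumed to vary like the rest.

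Initiation factor transcripts made up a smaller share of all counts with either agent, in both lines. In J-Lat A2 cells with DMSO the 51 genes held 1.84, 1.86, 1.71, 1.74 and 1.62% of the counts. With SAHA they held 1.35, 1.33, 1.27, 1.15 and 1.20%, and with PMA 1.27, 1.38 and 1.32%. In Jurkat cells the shares were 1.64, 1.74, 1.66, 1.63 and 1.51% with DMSO, 1.25, 1.26 and 1.17% with SAHA, and 1.28, 1.26 and 1.18% with PMA. No plate with an agent reached the lowest plate with DMSO of its line. Over the 3 plates of the second batch, EIF4A1, EIF4G2 and EIF5A together held 62.5% of the net fall in summed CPM with SAHA and 65.4% with PMA in J-Lat A2 cells. In Jurkat cells the same 3 genes held 58.4% with SAHA and 43.9% with PMA. They were the members with the largest falls with SAHA in J-Lat A2 cells. There EIF4G2 held 25.6% of the net, EIF4A1 25.3% and EIF5A 11.6%. With PMA, EIF4G2 overlapped DMSO in both lines and was not called, so the pooled share with PMA does not describe it. A share of counts is relative, and less RNA of these genes in each cell cannot be told apart from more RNA of other genes.

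**Figure D1:**
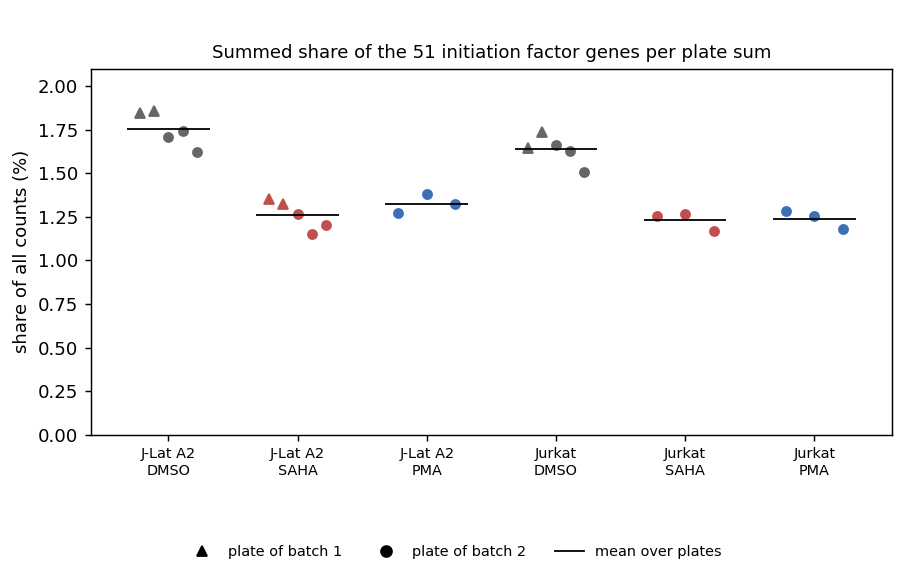
Share of all counts (%) held by the 51 initiation factor genes, for each sum of the kept cells of 1 group on 1 plate. Triangles are plates of the first batch, circles plates of the second, and lines the mean over plates. The DMSO plates sit between 1.51 and 1.86%, and the plates with SAHA or PMA between 1.15 and 1.38%.

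With SAHA in J-Lat A2 cells, 11 of 50 members fell and none rose, where 4.9% of all tested genes were called lower and 3.53% higher. They were EIF4EBP3, EIF4EBP1, EIF4A1, EIF4G2, EIF2S2, EIF3E, EIF2D, EIF5, EIF3C, EIF3A and EIF5A. With PMA in J-Lat A2 cells 2 members fell, EIF5A and EIF4A1, and none rose (0.804% of all genes called lower and 1.18% higher). In Jurkat cells 4 fell with SAHA, EIF4A1, EIF2S2, EIF4G2 and EIF5 (2.37% lower and 1.84% higher), and 3 with PMA, EIF5A, EIF4A3 and EIF4A1 (1.11% and 1.17%), and again none rose. Each of these members was lower with the agent than with DMSO on every plate that held both, 5 of 5 plates for SAHA in J-Lat A2 cells and 3 of 3 plates in the other comparisons.

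Most of the members are abundant, and abundant genes were called more often. Of the 33 members whose mean level was at least 100 CPM, 8 (24.2%) were called lower with SAHA in J-Lat A2 cells, against 17.4% of the 2196 genes of that level. The shares of those members called lower were 6.06% with PMA in J-Lat A2 cells, 12.1% with SAHA in Jurkat cells and 9.09% with PMA in Jurkat cells. The same shares over all genes of that level were 4.05, 9.38 and 5.56%. At like levels the members' shares were thus near those of other genes, and the results below are about single members. The median change over the 50 tested members was -0.34 with SAHA and -0.27 with PMA in J-Lat A2 cells, against 0.12 and 0.04 over all tested genes. In Jurkat cells the median was -0.26 with SAHA and -0.34 with PMA, against 0.11 and 0.07 over all tested genes. At 100 CPM or more the members' medians were -0.30 with SAHA and -0.20 with PMA in J-Lat A2 cells, against -0.07 and -0.16 over all genes of that level. In Jurkat cells they were -0.21 and -0.28, against -0.05 and -0.18.

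Other features of the cells differed between groups as well. On the plates of the first batch, 67 of 120 wells of SAHA-treated J-Lat A2 cells were kept, against 59 of 60 with DMSO. In the second batch 68 of 81 were kept, against 35 of 36 with DMSO, and in Jurkat cells all 36 wells with SAHA and all 30 with DMSO were kept. The median share of mitochondrially encoded counts per cell of J-Lat A2 was 4.91% with SAHA and 3.59% with DMSO in the first batch, and 4.94% and 3.66% in the second. In Jurkat cells of the second batch it was 4.51% with SAHA and 3.20% with DMSO. The summed level of the 9 T cell markers was 2272 to 2671 CPM with DMSO, 469 to 788 CPM with SAHA and 4080.1 to 4799.8 CPM with PMA in J-Lat A2 cells. In Jurkat cells it was 2066 to 2888 CPM, 619 to 686 CPM and 4317 to 4896 CPM in the same order. With SAHA 7 of the 9 markers fell in J-Lat A2 cells and 4 in Jurkat cells, with median log2 changes of -1.93 and -1.90. With PMA 2 of 9 rose in each line, CD3D and PTPRC, and the median changes were 0.14 and 0.48, so the higher sum does not describe the whole list. CD3D, a chain of the T cell receptor complex, was 824.5 to 1238 CPM with DMSO, 133.9 to 277.5 CPM under SAHA and 1909 to 3031 CPM under PMA in J-Lat A2 cells. Among markers of other blood cells, MS4A1, CSF1R, HBB and ALAS2 were at 0 in every group, and the list summed to 0.795 to 122.3 CPM over all plates. CD79A, a chain of the B cell receptor, was 39.1 to 106.9 CPM with DMSO, 1.82 to 13.5 CPM under SAHA and 46.2 to 113.2 CPM under PMA in J-Lat A2 cells. It fell with SAHA in J-Lat A2 (-3.46 ± 0.57, adjusted p = 0.00577) and Jurkat cells (-4.60 ± 0.95, adjusted p = 0.0263) and was higher with PMA than with SAHA in J-Lat A2 cells (3.87 ± 0.64, adjusted p = 0.00909). Of 6 epithelial and stromal markers, EPCAM and COL3A1 were at 0 in every group, and that list summed to 0 to 354.9 CPM, the highest in Jurkat cells with PMA (164.9 to 354.9 CPM). PECAM1, an adhesion molecule of endothelial and blood cells, was 52.6 to 95.6 CPM with DMSO, 0 to 18.1 CPM under SAHA and 162.7 to 354.9 CPM under PMA in Jurkat cells. It fell with SAHA in J-Lat A2 (-2.11 ± 0.32, adjusted p = 0.00361) and Jurkat cells (-2.86 ± 0.45, adjusted p = 0.00825) and was higher with PMA than with SAHA in J-Lat A2 cells (2.00 ± 0.38, adjusted p = 0.0189). The part of these differences in the results on initiation factors was not tested.

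**Figure D2:**
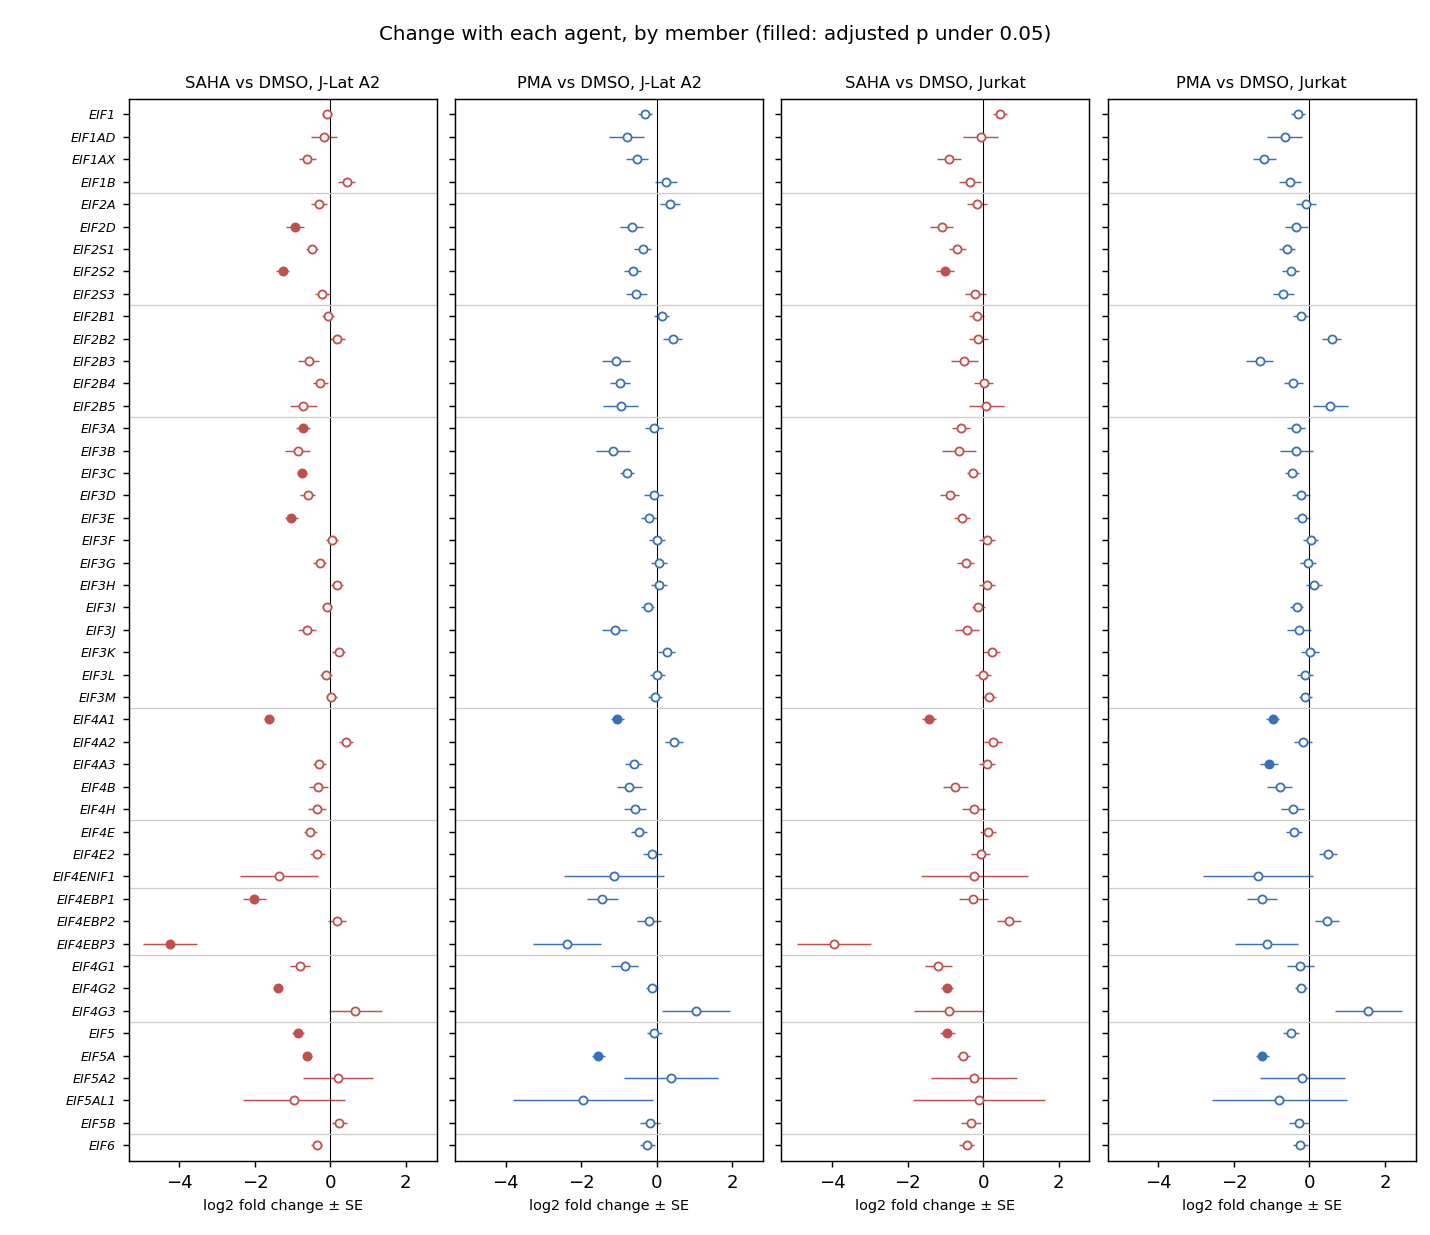
Log2 fold change ± SE with each agent against DMSO, from edgeR, for 47 tested members ordered by complex (grey lines part the complexes). Filled points have an adjusted p under 0.05, and all of them lie below 0. EIF4E1B and EIF4E3, which had no count in at least 1 group, and EIF3CL, which was read in 1 cell of Jurkat with PMA, are left out.

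Among the helicases, EIF4A1 fell with both agents in both lines. EIF4A1 is the main EIF4A of the cap-binding complex and unwinds the start of the mRNA. With DMSO its level was 1862, 2278, 2011, 1450.0 and 1270.4 CPM in J-Lat A2 cells and 1699, 2320.1, 1634, 1266 and 1302 CPM in Jurkat cells. SAHA plates held 681.1, 744.9, 643.2, 409.2 and 456.97 CPM in J-Lat A2 cells and 744.8, 434.1 and 428.02 CPM in Jurkat cells. Neither SAHA group overlapped its DMSO group. With PMA it was 915.7, 725.5 and 734.3 CPM in J-Lat A2 cells and 1065, 594.6 and 562.2 CPM in Jurkat cells, again below every plate with DMSO of the same line. The edgeR log2 change with SAHA was -1.63 ± 0.13, adjusted p = 0.000182 in J-Lat A2 cells and -1.43 ± 0.18, adjusted p = 0.0031 in Jurkat cells. With PMA the changes were -1.04 ± 0.18, adjusted p = 0.0164 and -0.98 ± 0.18, adjusted p = 0.0217. The median cell of J-Lat A2 had 1937 CPM of EIF4A1 with DMSO, 497 CPM with SAHA and 682 CPM with PMA. A readthrough transcript, SENP3-EIF4A1, had 3396 counts against 190817 of EIF4A1 in all kept cells. The call with PMA in J-Lat A2 cells was lost without their second DMSO batch (adjusted p = 0.3002). With PMA in Jurkat cells it was lost without their second DMSO batch, without plate P2770 or without plate P2771 (adjusted p between 0.0665 and 0.0997), and without the batch term (adjusted p = 0.0501).

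EIF4A1 lies at chr17:7572706-7579005 on the plus strand of GRCh38, in GENCODE 29. The bases just before its start, from RefSeq on GRCh38.p14, are shown because it was the one member called with both agents in both lines. Capitals mark CCAAT, the box bound by the factor NF-Y, found 2 times in this stretch at chr17:7572575-7572705.
EIF4A1: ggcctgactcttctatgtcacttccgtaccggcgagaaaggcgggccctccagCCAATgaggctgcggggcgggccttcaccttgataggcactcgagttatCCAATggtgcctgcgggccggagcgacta
In the 250 bases before the start, CCAAT was found on either strand in 33.9% of 59 windows of 43 members with a RefSeq promoter, against 32.01% of 35116 windows of all genes. TGACGT, the core of the cAMP response element, was found in 13.6% of the members' windows and 7.10% of all. The 7 member genes with TGACGT include EIF4A1 and EIF5A, where it lies outside the bases printed here. CACGTG, the E-box bound by MYC and its relatives, was found in 18.6% and 6.34%. Of the members called with an agent, EIF4EBP3 and EIF4A3 were the ones among the 11 member genes with CACGTG. EIF4A1, EIF4G2, EIF5 and EIF5A were not among those 11. A match describes letters and is not a bound site.

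EIF4A2, a close paralog of EIF4A1 with the same helicase activity, was not called with either agent. Its level was 416.3, 275.3, 225.8, 255.7 and 310.4 CPM with DMSO, 571.6, 343.4, 424.7, 376.4 and 381.9 CPM under SAHA and 466.5, 443.5 and 349.7 CPM under PMA in J-Lat A2 cells. SAHA and DMSO plates overlapped, and so did PMA and DMSO plates. On each plate that held both, EIF4A2 was higher with SAHA than with DMSO, and likewise with PMA. Its log2 change was 0.42 ± 0.19 with SAHA and 0.46 ± 0.24 with PMA in J-Lat A2 cells, and 0.27 ± 0.24 and -0.17 ± 0.24 in Jurkat cells. The difference between the changes of EIF4A1 and EIF4A2 was not tested. EIF4A3, the helicase of the exon junction complex, which acts in splicing and mRNA surveillance, was 693.03, 697.3, 634.6, 521.1 and 389.1 CPM in Jurkat cells with DMSO. The PMA plates there held 395.6, 201.1 and 266.5 CPM, and the highest of these plates just passed the lowest DMSO plate. It fell by this test (-1.07 ± 0.23, adjusted p = 0.0452), while with PMA in J-Lat A2 cells, where it lay below every DMSO plate, it was not called (-0.61 ± 0.22, adjusted p = 0.268). The Jurkat call was lost without either DMSO batch of J-Lat A2 cells, without plate P2458 or without plate P2770 (adjusted p between 0.0551 and 0.187), and with no filter on low counts (adjusted p = 0.0506). EIF4B and EIF4H, which stimulate the helicase, were not called in these 4 comparisons, with log2 changes from -0.79 to -0.25.

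**Figure D3:**
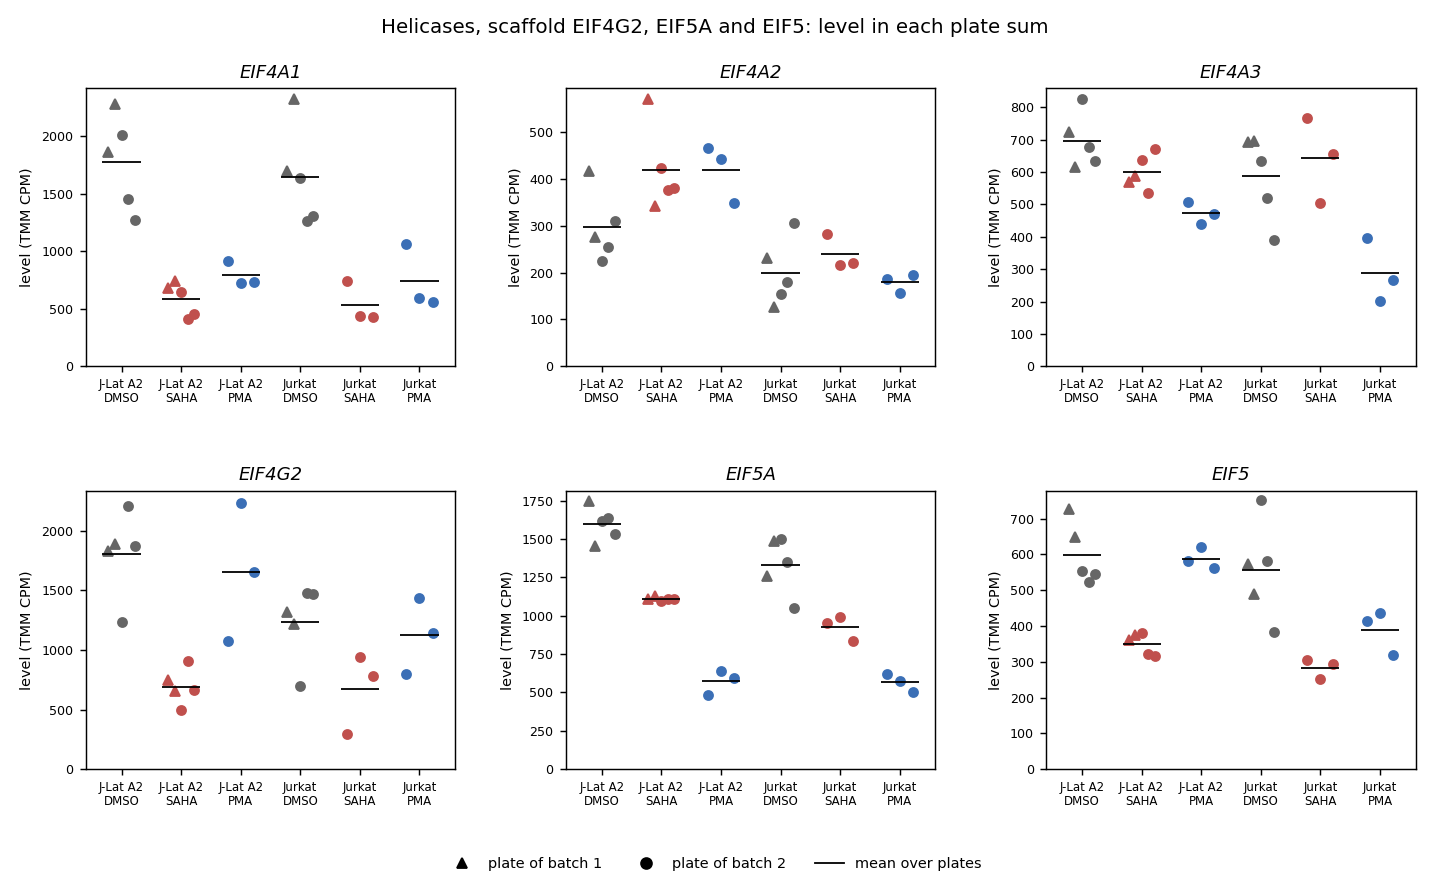
Level (TMM CPM, axes from 0) of EIF4A1, EIF4A2, EIF4A3, EIF4G2, EIF5A and EIF5 in each sum of 1 group on 1 plate. Triangles are the first batch, circles the second, lines the mean over plates. EIF4A1 is lower with both agents, EIF4G2 and EIF5 lie low with SAHA, and EIF5A is lowest with PMA (485 to 639 CPM in J-Lat A2 cells).

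Of the EIF4G scaffolds, EIF4G2 fell with SAHA in both lines and was not called with PMA. EIF4G2 (also DAP5) lacks the EIF4E-binding part of EIF4G1 and takes part in cap-independent and alternative initiation. Its level in J-Lat A2 cells was 1827, 1886, 1236, 2208 and 1873 CPM with DMSO and 745.7, 653.01, 494.2, 908.4 and 660.8 CPM with SAHA. These groups did not overlap. With PMA it was 1077, 2235 and 1658 CPM, and these plates reached from below the lowest to above the highest DMSO plate. Jurkat cells held 1323, 1217, 698.00, 1478 and 1469.6 CPM with DMSO, 290.4, 939.4 and 781.9 CPM under SAHA and 797.8, 1437 and 1142 CPM under PMA. Both agents overlapped DMSO there. The lowest level of each of the 6 groups was on plate P2769. The log2 change with SAHA was -1.40 ± 0.13, adjusted p = 0.000279 in J-Lat A2 cells and -0.95 ± 0.17, adjusted p = 0.0135 in Jurkat cells. With PMA it was -0.12 ± 0.16, adjusted p = 0.891 and -0.22 ± 0.16, adjusted p = 0.673. The call with SAHA in Jurkat cells was lost without their second DMSO batch (adjusted p = 0.0759). EIF4G1, the main scaffold, was 106.8 to 137.4 CPM in J-Lat A2 cells with DMSO, and its change with SAHA was -0.80 ± 0.27, adjusted p = 0.114. EIF4G3 was at most 40.3 CPM on any plate and was not called.

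None of the 5 EIF4E genes was called with an agent. EIF4E, the cap-binding protein itself, was the most abundant of them. Its level in J-Lat A2 cells was 368.99, 315.02, 438.3, 339.4 and 328.6 CPM with DMSO, 275.96, 190.01, 281.04, 285.5 and 264.3 CPM under SAHA and 231.8, 290.7 and 311.5 CPM under PMA. Both agents lay below all DMSO plates, yet the log2 changes of -0.53 ± 0.16, adjusted p = 0.0804 with SAHA and -0.47 ± 0.21, adjusted p = 0.412 with PMA did not pass. In Jurkat cells the level was 366.9, 279.3, 336.8, 290.04 and 327.5 CPM with DMSO, 368.3, 412.5 and 348.4 CPM under SAHA and 329.7, 224.3 and 228.9 CPM under PMA, and the groups overlapped. EIF4E2, a cap-binding protein linked to repression, was between 80.97 and 217.00 CPM on all plates.

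Of the EIF4E-binding proteins, which hold EIF4E away from EIF4G, EIF4EBP1 and EIF4EBP3 fell with SAHA in J-Lat A2 cells and EIF4EBP2 was not called. EIF4EBP1 was 122.6, 152.6, 199.4, 143.5 and 186.7 CPM with DMSO and 32.2, 49.7, 40.6, 39.8 and 34.1 CPM with SAHA, with no overlap (log2 change -2.01 ± 0.30, adjusted p = 0.0039). The PMA plates held 75.3, 74.6 and 55.4 CPM, also below every DMSO plate, and this change did not pass (-1.44 ± 0.40, adjusted p = 0.125). In Jurkat cells EIF4EBP1 was 34.5, 30.96, 92.4, 46.8 and 60.6 CPM with DMSO. There it was 65.7, 36.1 and 40.6 CPM under SAHA and 22.8, 24.6 and 24.8 CPM under PMA, and no change passed (-0.26 ± 0.38, adjusted p = 0.837 with SAHA). SAHA and DMSO overlapped in Jurkat cells, while PMA lay below every DMSO plate.

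EIF4EBP3, a binding protein of low abundance here, was 25.6, 22.5, 47.8, 35.2 and 28.4 CPM in J-Lat A2 cells with DMSO and 0.607, 2.06, 0, 1.25 and 5.79 CPM with SAHA. The groups stood far apart, and the log2 change was -4.26 ± 0.71, adjusted p = 0.00625. The PMA plates of J-Lat A2 cells held 10.998, 9.68 and 3.98 CPM, also below every DMSO plate, and this change was not called. Jurkat cells with PMA held 16.06, 8.65 and 6.40 CPM of EIF4EBP3, which overlapped their DMSO plates, again with no call. Reads of EIF4EBP3 were found in 64 of 94 cells with DMSO and in 8 cells (5.93%) with SAHA, and 1 cell gave 48.7% of its counts with SAHA. In Jurkat cells it was 14.8, 6.73, 32.7, 18.2 and 17.4 CPM with DMSO and 3.02, 0 and 1.38 CPM with SAHA, a change that did not pass (-3.96 ± 0.98, adjusted p = 0.0551) although the SAHA plates lay below every DMSO plate. The call in J-Lat A2 cells was lost without their second DMSO batch (adjusted p = 0.0615) and in the second batch alone, with plates as units (adjusted p = 0.122). A readthrough transcript, ANKHD1-EIF4EBP3, had 470 counts against 2292 of EIF4EBP3, and no source used here says how reads were divided between them. EIF4EBP2 was 42.5 to 150.1 CPM with DMSO and 94.2 to 175.9 CPM with SAHA in J-Lat A2 cells. The 250 bases at chr5:140547412-140547661 (GRCh38.p14, RefSeq, plus strand), just before the start of EIF4EBP3, are shown because it had the largest log2 change of the called members and they hold both TGACGT and CACGTG, in capitals.
EIF4EBP3: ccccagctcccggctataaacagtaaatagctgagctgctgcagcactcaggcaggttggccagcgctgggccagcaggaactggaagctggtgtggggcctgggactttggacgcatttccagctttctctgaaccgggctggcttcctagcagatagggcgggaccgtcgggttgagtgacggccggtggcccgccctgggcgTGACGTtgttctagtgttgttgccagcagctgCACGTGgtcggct

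**Figure D4:**
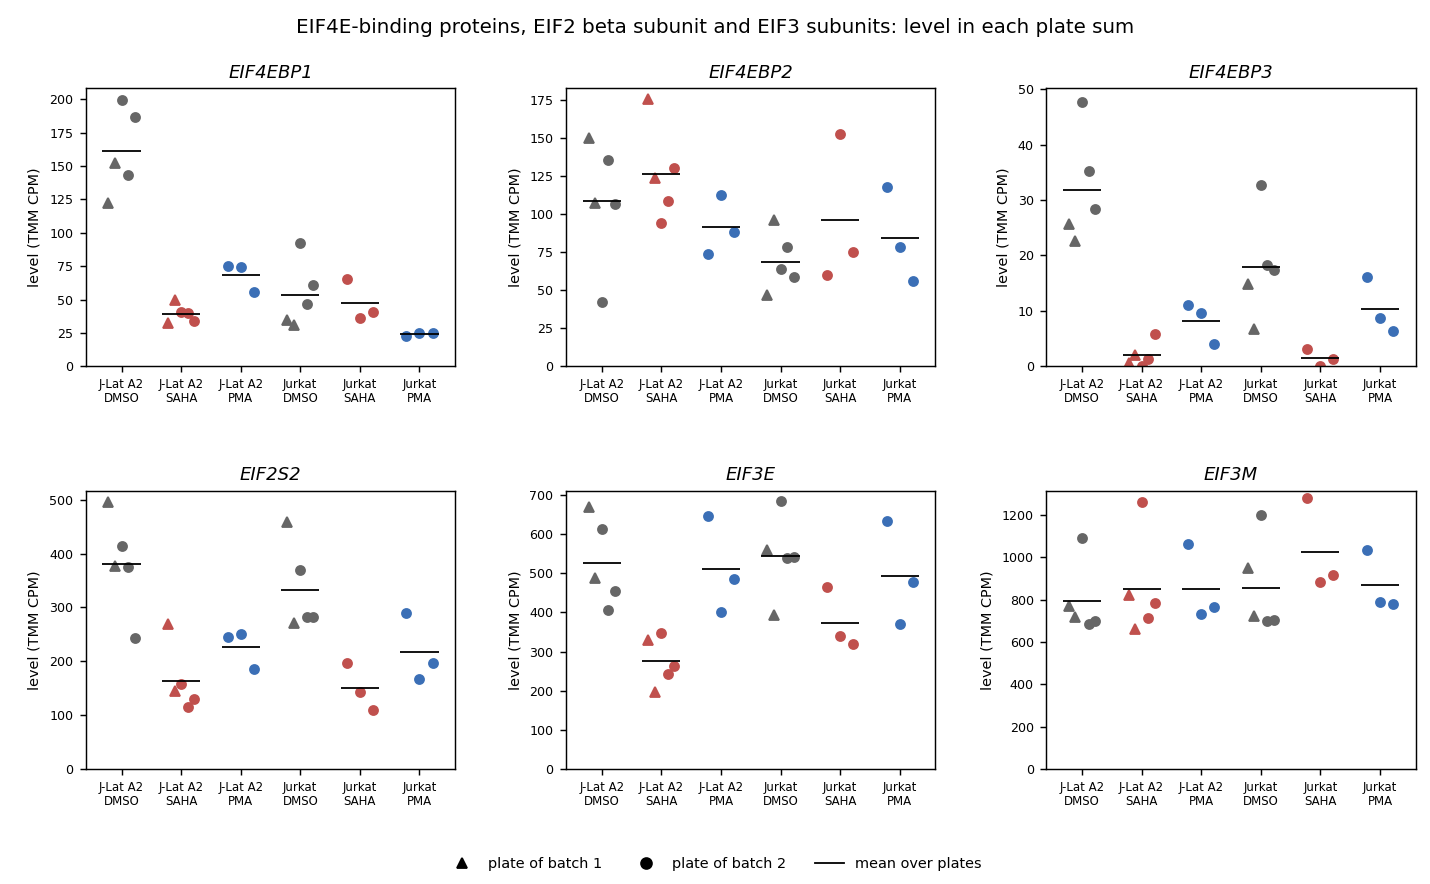
Level (TMM CPM, axes from 0) of EIF4EBP1, EIF4EBP2, EIF4EBP3, EIF2S2, EIF3E and EIF3M in each sum of 1 group on 1 plate. Triangles are the first batch, circles the second, lines the mean over plates. EIF4EBP1 with DMSO is 122.6 to 199.4 CPM in J-Lat A2 cells and 30.96 to 92.4 CPM in Jurkat cells, and EIF4EBP3 with SAHA is at or under 5.79 CPM.

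Of the 5 tested EIF2 genes, EIF2S2 and EIF2D fell with SAHA in J-Lat A2 cells, and EIF2S2 fell in Jurkat cells. EIF2S2 is the beta subunit of EIF2, which contacts EIF5 and EIF2B. In J-Lat A2 cells it was 496.4, 377.7, 414.7, 374.8 and 243.6 CPM with DMSO, 268.6, 145.4, 157.2, 115.5 and 129.3 CPM under SAHA and 245.1, 250.6 and 185.9 CPM under PMA. The highest SAHA plate, P2449, passed the lowest DMSO plate, and the other SAHA plates lay below all DMSO plates. The Jurkat plates held 457.8, 270.6, 370.3, 282.8 and 281.9 CPM with DMSO, 196.02, 142.9 and 110.4 CPM under SAHA and 289.3, 166.5 and 197.05 CPM under PMA, with no overlap between SAHA and DMSO. The log2 change with SAHA was -1.27 ± 0.17, adjusted p = 0.00245 in J-Lat A2 cells and -1.01 ± 0.23, adjusted p = 0.0402 in Jurkat cells. The Jurkat call was lost without the batch term (adjusted p = 0.0564). It was also lost without either DMSO batch of J-Lat A2 cells, the second DMSO batch of Jurkat cells, or plate P2449, P2458, P2770 or P2771 (adjusted p between 0.0576 and 0.192).

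EIF2D, which delivers initiator tRNA outside the usual GTP-dependent route, was 145.7, 139.4, 138.7, 86.6 and 68.7 CPM in J-Lat A2 cells with DMSO and 68.1, 83.6, 61.6, 44.6 and 66.6 CPM with SAHA. A single SAHA plate passed the lowest DMSO plate, and the log2 change was -0.93 ± 0.23, adjusted p = 0.0338. This call was lost without the batch term (adjusted p = 0.0697), in the second batch alone (adjusted p = 0.256), and without any batch of J-Lat A2 cells or plate P2449, P2769 or P2770 (adjusted p between 0.0933 and 0.223). The alpha subunit EIF2S1, the site of stress phosphorylation, was the most abundant EIF2 gene. Its level in J-Lat A2 cells was 535.6, 443.5, 538.2, 435.2 and 385.9 CPM with DMSO, 477.5, 290.3, 249.8, 272.1 and 396.1 CPM under SAHA and 413.8, 351.4 and 350.5 CPM under PMA. Its log2 change was -0.49 ± 0.17, adjusted p = 0.114 with SAHA and -0.38 ± 0.22, adjusted p = 0.588 with PMA. The gamma subunit gene EIF2S3 and EIF2A were not called with an agent.

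None of the 5 EIF2B genes, which encode the exchange factor of EIF2, was called with an agent. EIF2B1, the alpha subunit, had the highest level of them. It was 365.4, 300.5, 273.2, 346.6 and 284.96 CPM with DMSO, 370.2, 275.9, 304.7, 248.04 and 366.9 CPM under SAHA and 291.9, 407.4 and 332.7 CPM under PMA in J-Lat A2 cells, and the 3 groups overlapped. Over the 5 genes the log2 changes ran from -0.72 to 0.19 with SAHA and from -1.08 to 0.42 with PMA in J-Lat A2 cells. In Jurkat cells they ran from -0.49 to 0.08 with SAHA and from -1.32 to 0.59 with PMA.

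EIF3 is the largest initiation complex, a scaffold that binds the small subunit and EIF4G. With SAHA in J-Lat A2 cells 3 of 14 fell, EIF3E, EIF3C and EIF3A, and no EIF3 gene was called in the other 3 comparisons of an agent with DMSO. EIF3E was 668.3, 487.8, 612.5, 406.99 and 454.1 CPM with DMSO and 330.6, 197.9, 346.3, 241.8 and 264.5 CPM with SAHA, with no overlap (-1.03 ± 0.17, adjusted p = 0.00534). The PMA plates held 645.8, 401.8 and 484.5 CPM, 1 of them below the DMSO range. EIF3C, part of the core that contacts EIF1 and EIF5, was 854.1, 1016, 605.8, 1011 and 825.5 CPM with DMSO and 470.1, 660.4, 461.4, 495.7 and 542.6 CPM with SAHA (-0.76 ± 0.14, adjusted p = 0.00946). A single SAHA plate, P2458, passed the lowest DMSO plate. With PMA, EIF3C was 434.7, 523 and 532.7 CPM in J-Lat A2 cells, below every DMSO plate, and was not called. Its Jurkat plates held 556.7 to 802.3 CPM with DMSO and 554.8, 424.04 and 444.3 CPM with PMA, again with no overlap and no call. With SAHA they held 451.3, 605.2 and 557.7 CPM and overlapped DMSO. EIF3A, the largest subunit, was 186.8, 203.1, 96.1, 214.1 and 277.2 CPM with DMSO and 106.4, 135.5, 64.4, 127.5 and 166.4 CPM with SAHA (-0.73 ± 0.19, adjusted p = 0.0442), and the groups overlapped across plates while SAHA was lower on each plate. The call of EIF3E was lost without the first DMSO batch of J-Lat A2 cells (adjusted p = 0.0613), and that of EIF3C without either (adjusted p = 0.0831 and 0.0942). The call of EIF3A was lost without any batch of J-Lat A2 cells or plate P2449, P2770 or P2771 (adjusted p between 0.0942 and 0.270), without the batch term (adjusted p = 0.0703), without TMM (adjusted p = 0.0603) and in the second batch alone (adjusted p = 0.0928).

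Of the 14 genes, 5 lay within log2 0.3 of no change in each of the 4 comparisons of an agent with DMSO. They were EIF3F, EIF3H, EIF3K, EIF3L and EIF3M. Picked by this bound, they had log2 changes between -0.11 and 0.27, with an SE of at most 0.23. EIF3I, which had the highest level of the complex, was 1052, 1078, 1102, 805.3 and 889.2 CPM with DMSO, 939.6, 988.4, 1388, 855.4 and 710.9 CPM under SAHA and 1041, 789.5 and 816.1 CPM under PMA in J-Lat A2 cells. EIF3I was not called with an agent, at -0.09 ± 0.13 with SAHA and -0.24 ± 0.17 with PMA. In Jurkat cells EIF3I was 955.4, 1234, 1232, 962.1 and 991.6 CPM with DMSO, 1076, 923.7 and 922.02 CPM under SAHA and 918.3, 842.5 and 784.6 CPM under PMA. The PMA plates of Jurkat cells lay below all of their DMSO plates, and the change did not pass (-0.34 ± 0.17, adjusted p = 0.455). EIF3CL, a near-identical copy of EIF3C, had 863 counts against 115098 of EIF3C, and the division of reads between such copies is uncertain.

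EIF5A fell with PMA in both lines. EIF5A carries hypusine, a modified lysine, and helps ribosomes through difficult peptide bonds in elongation and termination as well as in initiation. It was 1749, 1455, 1619, 1639.8 and 1534 CPM with DMSO and 485.4, 639.2 and 592.7 CPM with PMA in J-Lat A2 cells. Jurkat cells had 1261, 1488, 1502, 1349 and 1054 CPM with DMSO and 617.98, 575.4 and 501.98 CPM with PMA. PMA and DMSO plates stood apart in both lines, with log2 changes of -1.55 ± 0.17, adjusted p = 0.00183 in J-Lat A2 cells and -1.25 ± 0.17, adjusted p = 0.00541 in Jurkat cells. With SAHA it was 1111, 1128, 1099.8, 1109.9 and 1109 CPM in J-Lat A2 cells, also below all DMSO plates (-0.61 ± 0.13, adjusted p = 0.0171). In Jurkat cells with SAHA it was 954.8, 990.1 and 834.3 CPM, below all DMSO plates as well, and the change did not pass (-0.52 ± 0.17, adjusted p = 0.124). The SAHA call was lost without either DMSO batch or the first SAHA batch of J-Lat A2 cells, or without plate P2449 (adjusted p between 0.0521 and 0.170). EIF5AL1, a near-identical copy, had 562 counts against 207015 of EIF5A, and the division of reads between these copies is uncertain too.

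EIF5A lies at chr17:7306999-7312463 on the plus strand (GRCh38, GENCODE 29). The 250 bases before it, at chr17:7306749-7306998 (GRCh38.p14, RefSeq), are shown because it fell with PMA in both lines. Capitals mark the CCAAT box.
EIF5A: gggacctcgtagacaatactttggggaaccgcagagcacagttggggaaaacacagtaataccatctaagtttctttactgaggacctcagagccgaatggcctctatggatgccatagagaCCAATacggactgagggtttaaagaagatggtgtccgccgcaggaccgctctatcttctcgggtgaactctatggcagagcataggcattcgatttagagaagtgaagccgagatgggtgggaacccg

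EIF5, the GTPase-activating partner of EIF2, fell with SAHA in both lines and was not called with PMA. It was 726.02, 648.3, 555.04, 523.8 and 544.99 CPM with DMSO, 359.99, 374.5, 379.4, 320.99 and 316.4 CPM under SAHA and 582.8, 620.1 and 562.3 CPM under PMA in J-Lat A2 cells. SAHA lay below every DMSO plate and PMA did not. In Jurkat cells it was 574.4, 490.7, 751.9, 580.9 and 384.5 CPM with DMSO, 303.6, 252.8 and 294.3 CPM under SAHA and 413.4, 436.2 and 318.9 CPM under PMA, with the same pattern of overlap. The log2 change with SAHA was -0.87 ± 0.16, adjusted p = 0.00903 in J-Lat A2 cells and -0.95 ± 0.21, adjusted p = 0.0348 in Jurkat cells, and with PMA -0.06 ± 0.20, adjusted p = 1 and -0.49 ± 0.20, adjusted p = 0.321. Without their first DMSO batch the J-Lat A2 call was lost (adjusted p = 0.111). When each cell weighed the same, the change there was -0.29. The Jurkat call was lost without their second DMSO batch or plate P2449, P2769 or P2770 (adjusted p between 0.0520 and 0.208). With all wells kept, both calls were lost (adjusted p = 0.0691 in J-Lat A2 cells and 0.0626 in Jurkat cells).

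EIF1, which guards the choice of start codon, was the most abundant of its group and was not called. It was 717.6, 648.1, 825.8, 734.1 and 658.7 CPM with DMSO, 649.9, 656.9, 900.5, 706.7 and 677.4 CPM under SAHA and 734.95, 610.02 and 660.2 CPM under PMA in J-Lat A2 cells, and the groups overlapped. In Jurkat cells its SAHA plates, 891.5, 977.6 and 824.6 CPM, lay above its DMSO plates, 531.3, 510.2, 683.5, 670.9 and 655.95 CPM, and the change of 0.44 ± 0.18, adjusted p = 0.236 did not pass. EIF1 was the one member whose plates stood wholly above DMSO in that comparison, where 8.97% of all tested genes did. EIF6, which keeps the ribosomal subunits apart until the large subunit is mature, was 328.2, 343.4, 384.2, 290.9 and 310.9 CPM with DMSO, 270.4, 230.9, 363.9, 213.4 and 256.2 CPM under SAHA and 367.9, 262.8 and 278.8 CPM under PMA in J-Lat A2 cells. It was not called with an agent. EIF5B, the GTPase of subunit joining, was not called either and ranged from 70.3 to 227 CPM over all plates.

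Plates that did not overlap were counted as well, a measure that gives each plate the same weight. In J-Lat A2 cells 9 members lay wholly below DMSO with SAHA (4.99% of all tested genes) and 12 with PMA (4.91%). In Jurkat cells 10 did with SAHA (5.67%) and 9 with PMA (3.83%). No member lay wholly above DMSO with SAHA in J-Lat A2 cells (5.21% of all tested genes) or with PMA in Jurkat cells (6.84%). Among the 33 members of at least 100 CPM the counts were 7 and 6 in J-Lat A2 cells and 7 and 8 in Jurkat cells, where the shares over all genes of that level were 14, 13.4, 14.7 and 12.5% in the same order. EIF2A was the one member wholly above DMSO with PMA in J-Lat A2 cells (7.51% of all tested genes), at 156.1 to 187.7 CPM against 81.2 to 149.6 CPM.

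Read per kb of the longest annotated transcript, and over the median of the J-Lat A2 plates with DMSO, EIF5A was highest at 1072 CPM per kb, ahead of EIF4A1 at 1060.2, EIF3I at 721.7, EIF4G2 at 468 and EIF4A3 at 392 CPM per kb. The plates of EIF5A and EIF4A1 overlapped, so these neighbours were not ordered beyond their spread. By median CPM, 38 of the 51 members reached 100 CPM in J-Lat A2 cells with DMSO, 7 lay from 10 to under 100 CPM and 6 lay under 10 CPM. Those 6 were EIF2S3B, EIF3CL, EIF4E1B, EIF4E3, EIF5A2 and EIF5AL1. EIF4E3 had 20 counts in J-Lat A2 cells with DMSO and 294 with SAHA, of which 1 cell gave 29.6%, and no count in Jurkat cells with DMSO. EIF4E1B had 21 counts in J-Lat A2 cells with SAHA, of which 1 cell gave 66.7%, and none in any other group. No direction was read from such values.

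The comparison of PMA with SAHA within J-Lat A2 cells asks where the agents differ. EIF4G2 was higher with PMA (1.28 ± 0.16, adjusted p = 0.00171) and EIF5A was lower (-0.95 ± 0.17, adjusted p = 0.0132). These were the 2 members called of 50, 1 in each direction, where 2.25% of all tested genes were higher and 1.37% lower. Each of the 3 plates that held both agents showed the same direction, and the plates of the agents did not overlap for either gene. EIF2A, EIF3D, EIF3E, EIF4EBP1 and EIF5 also lay wholly higher with PMA (8.49% of all tested genes) and EIF2B4 and EIF4A3 wholly lower (6.98%), and none of these passed the test.

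Between the lines with DMSO, none of the 50 members was called by edgeR, and 8 had an unadjusted p under 0.05 (0.398% of all tested genes were called in either direction). DESeq2 called 2 members. EIF4G2 and EIF5A, the members of highest mean level over all 6 groups, differed between J-Lat A2 and Jurkat cells by 0.48 ± 0.13, adjusted p = 0.178 and 0.31 ± 0.13, adjusted p = 0.456. EIF4A1, whose median CPM was above that of EIF5A in both DMSO groups though not on every plate, differed by 0.13 ± 0.13, adjusted p = 0.864. EIF4G2 passed with DESeq2 (adjusted p = 0.0155) and with plate sums as units (adjusted p = 0.00774). EIF4EBP1, named after its values were seen, was the one member whose plates did not overlap, higher in J-Lat A2 cells by 1.68 ± 0.30, adjusted p = 0.0604 (1.73% of all tested genes lay wholly higher and 0.782% wholly lower). The lines may differ through the clone as well as the construct, and the design cannot tell these apart.

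Whether an agent acted differently in the 2 lines was tested as an interaction. No member was called for SAHA or for PMA by edgeR, with 3 and 1 members at an unadjusted p under 0.05, and none by DESeq2. Over all tested genes 0.00737% and 0.0221% were called. For EIF4G2 the difference of the log2 changes, J-Lat A2 minus Jurkat, was -0.44 ± 0.20 with SAHA and 0.10 ± 0.22 with PMA. For EIF5A it was -0.08 ± 0.21 and -0.30 ± 0.22. So the different numbers of calls in the lines do not show that the lines differ.

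Genes that act on the initiation factors were read from lists. Of 8 tested genes among the kinases and phosphatase subunits of EIF2 and their regulators, 1 fell with SAHA in J-Lat A2 cells, EIF2AK2 (-2.14 ± 0.37, adjusted p = 0.00679), the kinase activated by double-stranded RNA. None was called in the other 3 comparisons of an agent with DMSO. The median log2 change of these 8 genes was 0.15 with SAHA and 0.02 with PMA in J-Lat A2 cells, and -0.39 and -0.37 in Jurkat cells. Of 8 integrated stress response genes, TRIB3 (-2.46 ± 0.38, adjusted p = 0.00446) and ATF4 (-1.51 ± 0.26, adjusted p = 0.00752), the main transcription factor of that response, fell with SAHA in J-Lat A2 cells. ATF4 in J-Lat A2 cells was 460.3 to 532.4 CPM with DMSO, 124.8 to 241.8 CPM with SAHA and 309.2 to 423.7 CPM with PMA. The Jurkat plates held 312.9 to 541.4 CPM with DMSO, 175.8 to 218.5 CPM under SAHA and 271.4 to 294.8 CPM under PMA. With each agent ATF4 thus lay below every DMSO plate of the same line, and only the change with SAHA in J-Lat A2 cells was called. In Jurkat cells ASNS, asparagine synthetase and a target of ATF4, rose with SAHA (1.33 ± 0.23, adjusted p = 0.0118). The median log2 change of the 8 stress response genes was -1.36 with SAHA and -0.38 with PMA in J-Lat A2 cells, and -0.21 and -0.01 in Jurkat cells. TRIB3 was higher with PMA than with SAHA in J-Lat A2 cells (3.66 ± 0.48, adjusted p = 0.00241). ASNS was also higher in J-Lat A2 than in Jurkat cells with DMSO, at 422.4 to 761.5 against 19.7 to 50.8 CPM (3.96 ± 0.20, adjusted p = 1.07e-05).

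Of 13 genes of the MTOR pathway and the kinases of the cap complex, MKNK1, a kinase of EIF4E, rose (1.39 ± 0.28, adjusted p = 0.0136) and MLST8, an MTOR subunit, fell (-1.62 ± 0.30, adjusted p = 0.0105) with SAHA in J-Lat A2 cells. None of the 13 was called in the other 3 comparisons with DMSO. Their median change was 0.25 with SAHA and -0.11 with PMA in J-Lat A2 cells, and 0.19 and -0.23 in Jurkat cells. Of 14 poly(A)-binding and initiation cofactors, PAIP2, an inhibitor of poly(A)-binding protein, rose (1.20 ± 0.15, adjusted p = 0.00125) and BZW2 fell (-0.83 ± 0.19, adjusted p = 0.0249) with SAHA in J-Lat A2 cells. BZW1, an EIF5 mimic, rose with PMA in J-Lat A2 cells (1.17 ± 0.22, adjusted p = 0.0258). Its Jurkat plates with PMA, 1060 to 1485 CPM, also lay above every DMSO plate (455.7 to 898.8 CPM), without a call. PAIP2 likewise lay above every DMSO plate of the same line in the other 3 comparisons, and was not called there. With SAHA in Jurkat cells CYFIP1, a binder of EIF4E, fell (-3.16 ± 0.61, adjusted p = 0.02), and so did ABCE1, which recycles ribosomes (-1.24 ± 0.26, adjusted p = 0.0292). With PMA in Jurkat cells none was called. The cofactors' median changes lay between 0.03 and 0.13 in these 4 comparisons.

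Neither DHPS nor DOHH, the enzymes that make hypusine on EIF5A, was called. DHPS was 144.5 to 222.3 CPM with DMSO, 176.2 to 294.98 CPM under SAHA and 139.3 to 163.9 CPM under PMA in J-Lat A2 cells. Of 10 tested genes listed as elongation and termination factors, 3 fell with SAHA in J-Lat A2 cells. They were EEF1E1 (-1.29 ± 0.21, adjusted p = 0.00598), EEF1B2 (-0.84 ± 0.16, adjusted p = 0.0107) and EEF1A1 (-0.55 ± 0.11, adjusted p = 0.0152). Despite its symbol, EEF1E1 encodes a part of the aminoacyl-tRNA synthetase complex and not an elongation factor. In Jurkat cells EEF1E1 was the 1 listed gene that fell with SAHA (-1.28 ± 0.28, adjusted p = 0.035), and none was called with PMA in either line. The median change of the 10 was -0.37 with SAHA and -0.33 with PMA in J-Lat A2 cells, and -0.68 and -0.36 in Jurkat cells. MYC, a transcription factor that promotes growth and ribosome production, was 1 of 3 growth regulators listed and fell in all 4 comparisons. It was 161.4 to 349.8 CPM with DMSO, 17.1 to 40.2 CPM under SAHA and 8.80 to 16.7 CPM under PMA in J-Lat A2 cells (-3.14 ± 0.43, adjusted p = 0.00222 with SAHA, -4.60 ± 0.62, adjusted p = 0.00522 with PMA). In Jurkat cells it was 218.8 to 897.01 CPM with DMSO, 11.4 to 59.8 CPM under SAHA and 20.2 to 55.5 CPM under PMA (-3.78 ± 0.59, adjusted p = 0.00799 and -3.79 ± 0.59, adjusted p = 0.0104).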

How the data were processed

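Poly(T)-primed cDNA of single sorted cells was amplified with no molecular identifier, and each well is 1 column of the deposited table. The values are estimated counts per gene as the authors deposited them, not normalised. The tools Salmon 1.5.1 and alevin and the build GRCh38.p13 are listed in the submitters' processing notes, with no role. Strand use, the transcript annotation and the division of reads between copies are in none of the sources used here, so near-identical or overlapping genes are uncertain. Of values above 0, 12.8% were not whole (tolerance 1e-06).

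A well was kept with a total of at least 1/10 of its plate's median and 500 genes (410 of 480 wells, totals 19756 to 984418). Counts were summed per group and batch and rounded after summing. Batches were assigned from the stated plate numbers (2 and 3) and the 2 runs of plate names, and the batch number is shared by the stated design. The batch shifts of the 3 groups in both batches correlated at 0.0294 to 0.0393 over 13560 genes. Groups in 1 batch were assumed to vary like the others.

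The fit used R 4.3.3, edgeR 4.0.16 (TMM, filterByExpr, group and batch, 2 residual and 7.75 prior degrees of freedom, two-sided). DESeq2 1.42.0 and limma 3.58.1 served as alternatives, and the fit was tested on simulated data. Fold changes are adjusted for batch and plate levels are not. Amplified reads are not independent molecules, so totals overstate the precision of a level. Members and lists were chosen with earlier results of these data known. The text names every called member (where over 12, the 12 of largest change among those of at least 20 CPM), or the 2 most abundant where fewer than 2 were called. Plate levels are printed for up to 3 called members per complex and direction and for the most abundant of each complex. Up to 3 called genes are named per list. One marker gene of other blood cells is not reported here.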

Additional observations from a re-analysis of the deposited data

Results flagged for a closer look

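EIF2S2, the beta subunit of EIF2, was 269 CPM in J-Lat A2 cells with SAHA on plate P2449, far above the other 4 plates of that group (115.5 to 157.2 CPM). It was the 1 value that stood apart by Dixon's test, of 36 groups of 5 plates examined over 12 members, where chance gives about 1 in 20.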

How the results depend on the processing

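All 22 calls of members kept their direction under each of 21 alternatives. With limma and an equal weight for each cell, 0 members and 0 genes at all were called in every comparison (17 members at an unadjusted p under 0.05 for SAHA in J-Lat A2 cells); the cause was not tested. The numbers of members called below are in the order SAHA and PMA in J-Lat A2 cells, SAHA and PMA in Jurkat cells, PMA against SAHA, and J-Lat A2 against Jurkat cells, from 11, 2, 4, 3, 2 and 0. DESeq2 called 14, 5, 10, 5, 5 and 2. Plate sums with the plate as replicate block gave 16, 7, 13, 4, 8 and 2, and the second batch alone with that block 10, 4, 10, 5, 7 and 1. The fit with no replicate block (no batch term) gave 9, 2, 3, 2, 2 and 0. With all wells kept, 1 member was called between the lines. Leaving out 1 batch of a group or 1 plate gave 5 to 12, 1 to 4, 1 to 7, 1 to 4, 2 to 4 and 0 to 1. The reversed values belong to differences between the lines that were not called: EIF5A with SAHA ran from -0.15 (without plate P2458) to 0.12 (without plate P2449), and EIF4G2 with PMA was -0.051 with plate sums, -0.050 in the second batch alone and -0.016 with equal cell weights. Jurkat cells with DMSO had 6 cells on each plate, which limits members of low level.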
